A study of Mus musculus with 12 samples.

Results

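The autosomal liver genes that differ between male and female mice lacking Cyp2e1 are described here. The members are the genes on chromosomes 1 to 19 in a table of liver gene counts, compared between 3 male (XY) and 3 female (XX) libraries of knockout mice. Of 56748 genes listed, 52442 lie on these chromosomes, and 13559 of them had enough counts to be tested. The libraries are 6 of the 12 in the study, which measured poly(A)-selected RNA of whole liver. The knockout mice were of the line 129/Sv-Cyp2e1tm1Gonz/J, in which a targeted allele disables Cyp2e1, the cytochrome P450 that oxidises ethanol and acetaminophen. Male and female 129S1/SvImJ mice, 3 libraries of each sex, served as wild type. All groups were 16 weeks old, ate normal chow and were co-housed, and the labels name no treatment. The knockout allele is present in every cell of both sexes, so the comparison of sexes is made within the knockout line, while any comparison with wild type is also a comparison of lines. The series describes the 3 libraries of a group as biological replicates.

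Mouse liver is among the most sexually dimorphic tissues, and most of this dimorphism is set by growth hormone rather than directly by the sex chromosomes. The male pituitary releases growth hormone in pulses and the female pituitary releases it almost continuously, and hepatocytes read the pattern through the growth hormone receptor, the kinase JAK2 and the transcription factor STAT5. Pulses keep male-type genes on, such as the major urinary proteins and some P450 enzymes, while continuous hormone keeps on female-type genes, among them the repressor Cux2, which in turn lowers male-type genes.

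The sex labels held in all 6 knockout libraries. The Y-linked gene Ddx3y had 868 to 954 counts in males and 0 in every female, and Xist, the RNA that silences an X chromosome, ranged from 4803 to 7917 in females and from 1 to 2 in males. Cyp2e1 itself (ENSMUSG00000025479, chromosome 7, 140343652 to 140354900, mm39) was low in both knockout sexes. Its level, as counts scaled to library size (CPM), was 230.2, 323 and 277 in female and 389, 403 and 318 in male knockout libraries. The groups overlapped and the sexes were not shown to differ (log2 fold change 0.42 ± 0.18, edgeR adjusted p = 0.184), against means of 6546 CPM in wild type females and 10851 CPM in wild type males. Total counts ran from 18718688 to 25082532 in knockout females and from 15167730 to 20518036 in knockout males. Female knockout replicate 2 stood apart from the other 5 knockout libraries by transcripts of skeletal muscle, with 903 counts of Acta1, 180 of Tnnt3, 135 of Myh4 and 134 of Ckm where the others had 0 to 1. These muscle genes were chosen after their values were seen. Results are given with and without that library where it matters.

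In knockout liver 734 of 13559 tested autosomal genes (5.41%) differed between the sexes at an adjusted p under 0.05 by edgeR's quasi-likelihood test. Of these, 402 (2.96% of genes tested) were higher in males and 332 (2.45%) in females, and fold changes below are log2 values of male over female, ± their standard error. The differences were large in both directions. A total of 302 male-higher and 295 female-higher genes passed a log2 difference of 1, and 55 and 51 passed a log2 difference of 4. Their medians were 1.48 and -1.73, beside -0.04 over all autosomal genes tested. Every male library lay above every female library for 401 of the 402, and the converse held for 331 of the 332. Without regard to the test the male libraries lay above the female ones for 1899 genes (14%) and below for 1917 (14.1%). Without female knockout replicate 2 the count of calls was 456. In bulk liver, fewer cells of a type and less RNA per cell cannot be told apart.

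The male-higher genes held 13.04% to 16.26% of all counts in the male libraries and 3.56% to 4.21% in the female libraries. The female-higher genes held 4.54% to 4.75% of counts in females and 1.10% to 1.74% in males. Male-higher genes were the more abundant, with a median average log2 CPM of 4.69 against 2.74, beside 3.43 for all tested. Protein-coding genes were 335 of the 402 and 295 of the 332, and long noncoding RNAs were 48 and 18.

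**Figure D1:**
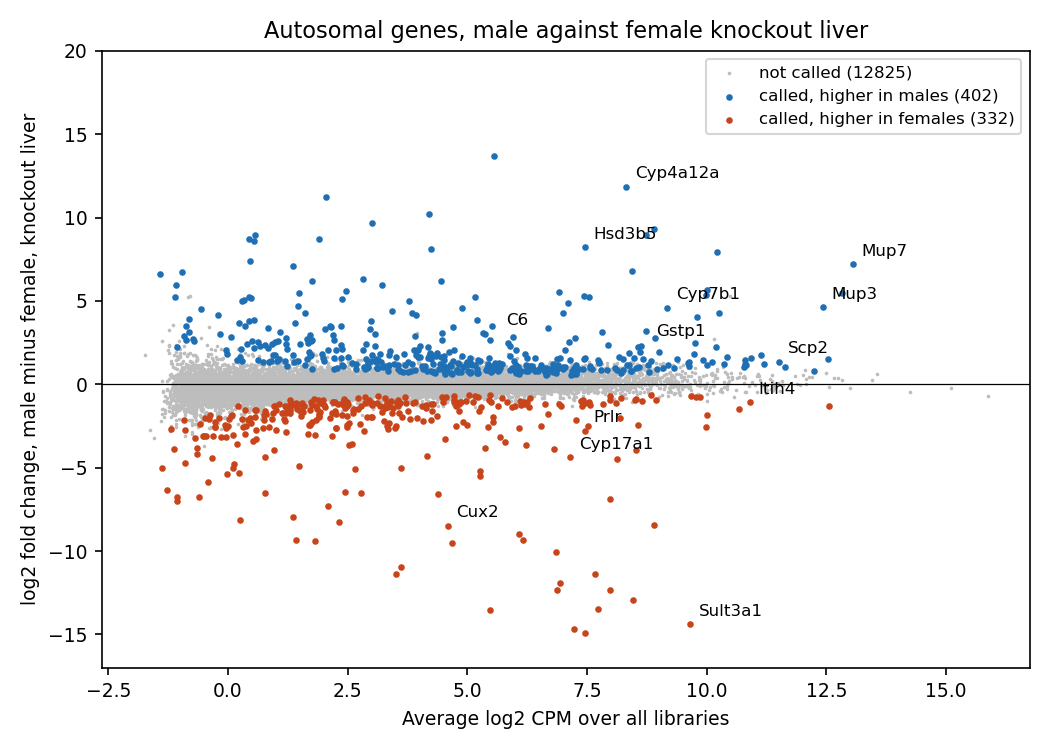
Each point is an autosomal gene, with its average log2 CPM over all 12 libraries on the x axis and its log2 fold change, male minus female in knockout liver, on the y axis. The 402 genes called higher in males (blue) and the 332 called higher in females (red) reach far from the 12825 not called (grey), at low and at high levels.

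Male livers carried the transcripts of Cyp4a12a (ENSMUSG00000066071, chromosome 4, 115156243 to 115190012, protein-coding), a fatty acid hydroxylase that makes the vasoactive lipid 20-HETE and is induced by androgen. It stood at 737, 401 and 784 CPM in the 3 male libraries and at 0, 0.185 and 0.293 CPM in the 3 female ones (11.86 ± 0.63, adjusted p = 6.73e-08). The 2 groups were separated by more than 3 orders of magnitude. Its near-identical neighbour Cyp4a12b had 91.6, 53.1 and 115 CPM in males and 0 counts in females, at least 2162-fold higher, with the female group set to a floor of 3 counts over its libraries. The sources used here do not say how reads were split between such copies, so values of single copies are uncertain.

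Hsd3b5 (ENSMUSG00000038092, chromosome 3, 98525950 to 98537568), a ketosteroid reductase of male liver, was at 379, 411 and 297 CPM in males and 0.489, 1.30 and 1.76 CPM in females (8.24 ± 0.46, adjusted p = 1.22e-07). Cyp7b1 (ENSMUSG00000039519, chromosome 3, 18126114 to 18297502), the oxysterol 7-alpha-hydroxylase, was at 927, 981 and 973 CPM in males and 29.9, 38.6 and 50.2 CPM in females (4.60 ± 0.27, adjusted p = 2.08e-07). The male values of Cyp7b1 lay within a few percent of each other. Gstp1 (chromosome 19, 4085407 to 4087985), a glutathione S-transferase of class pi, rose from 149, 112 and 109.6 CPM in females to 2062, 2422 and 2653 CPM in males (4.27 ± 0.22, adjusted p = 6.73e-08). C6 (chromosome 15, 4756657 to 4844449), a component of the complement membrane attack complex, had 259.9, 212 and 302 CPM in males and 10.3, 7.92 and 7.70 CPM in females (4.90 ± 0.21, adjusted p = 1.22e-08), and among the male-higher genes with an average log2 CPM of at least 1 it shared the smallest adjusted p with Mup21. Slco1a1, an uptake transporter for bile acids and steroid conjugates, was higher in males with a wider spread, at 728, 1119 and 508 against 72.2, 130.2 and 136 CPM (2.80 ± 0.37, adjusted p = 0.00039).

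Major urinary proteins, the lipocalins that carry pheromones into male urine, supplied the most abundant male-higher transcripts. Of 22 tested members on chromosome 4, 14 were higher in males, 0 were higher in females, and the median was 5.29. Summed over the family the level was 593.6 to 1837 CPM in the female libraries and 37872 to 75374 CPM in the male libraries, which did not overlap. Mup20, whose product is the pheromone darcin, was at 408, 931 and 728 CPM in males and 8.94, 4.77 and 5.28 CPM in females (6.77 ± 0.42, adjusted p = 2.81e-07). Mup21 was at 1000.1, 1559 and 867 against 2.31, 1.11 and 1.91 CPM (9.32 ± 0.41, adjusted p = 1.22e-08). Both were low in every female library and high in every male one. Mup7 reached 10868, 26885 and 15898 CPM in males, but the female libraries were far apart, at 0.578, 110.4 and 255 CPM (7.20 ± 1.42, adjusted p = 0.00883), and without female knockout replicate 2 its adjusted p was 0.0509. Mup19 spread as widely on the male side, with 307, 1811 and 20.5 CPM against 1.16, 2.08 and 1.06 CPM (8.96 ± 1.79, adjusted p = 0.00938), and its call was lost without female knockout replicate 1 or 3 (adjusted p up to 0.0623). The genes of this family are near-identical, so the sum is firmer than the split between members.

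Other genes with the largest male excess had few counts in females. Obp2a, an odorant-binding lipocalin, was at 2.91, 5.72 and 8.16 CPM in males with 1 count over the female libraries, a ratio of 409 (95% counting interval 72.8 to 16187). Moxd1, a monooxygenase related to dopamine beta-hydroxylase, spread from 0.702 over 7.38 to 42.2 CPM in males with 1 count over the females, a ratio of 1353 (95% counting interval 242 to 53488). Its adjusted p of 0.011 rose to 0.0697 at most when single female knockout libraries were left out. Nat8, an N-acetyltransferase that completes mercapturic acids, was at 8.53, 20.8 and 9.74 against 0.267, 0.0463 and 0.147 CPM (6.34 ± 0.51, adjusted p = 3.89e-06). These intervals and floors cover counting error only.

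Female livers carried transcripts that were almost missing in males. Sult3a1 (ENSMUSG00000069668, chromosome 10, 33733717 to 33755528), an amine sulfotransferase, stood at 988, 705 and 1073 CPM in the female libraries, while the male libraries held 2 counts in all. The ratio was 25139 (95% counting interval 6959 to 207585, adjusted p = 7.79e-09). Per kilobase of transcript it was among the more abundant female-higher genes, at 797 CPM per kb in females and 0.0311 in males. Sult3a2, its neighbour, had 174, 132 and 205 CPM in females and 0 counts in males, at least 3108-fold higher. The sulfotransferases as a family leaned the same way: 10 of 15 tested were higher in females and 1, Sult2a8 (2.25 ± 0.42, chosen after its values were seen), in males, with a median of -3.10. Sult2a1, which sulfates bile acids and hydroxysteroids, had 264, 154 and 266 CPM in females and 2 counts in all in males (ratio 6214, 95% counting interval 1719.8 to 51313). Members of the Sult2a group resemble each other closely, and their separate values are uncertain.

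The female-type P450s of the Cyp3a cluster on chromosome 5 behaved alike. Cyp3a44 (ENSMUSG00000054417, chromosome 5, 145710793 to 145742684) was at 280.0, 291 and 438 CPM in females and had 2 counts over the males (ratio 9242, 95% counting interval 2558 to 76318). Cyp3a16 was at 340.0, 198 and 322 CPM in females and had 1 count over the males (ratio 15599, interval 2799 to 616165). Cyp3a41a and Cyp3a41b, drug and steroid hydroxylases like the others, were at 129, 188 and 199.97 and at 187, 202 and 200.2 CPM in females, with 2 and 0 counts over the males. All 5 tested genes between 145373119 and 145742684 of chromosome 5, a span of 370 kb, were higher in females. The ends of this span were set by called genes, so the count describes a run of calls and not the whole Cyp3a family. Outside the span Cyp3a11, Cyp3a13, Cyp3a25 and Cyp3a59 had transcripts in both sexes. The mean level of Cyp3a25 was higher in males, and those of the others were higher in females.

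Because these neighbours moved together, the 250 bases before their start sites are shown from the RefSeq table of promoters (GRCm38.p6, the C57BL/6J reference rather than a 129 line). All 3 lie on the minus strand and are written 5′ to 3′, and capitals in the lower pair mark bases that do not match Cyp3a41a. Over these 250 bases Cyp3a44 was 94.4% and Cyp3a16 92.4% identical to Cyp3a41a, and Cyp3a41b, not printed, was 99.6% identical. The alignment of Cyp3a16 had 15 mismatches and 8 gap positions, and the capitals AGGC at the end of Cyp3a16 lie opposite a gap. The coordinates are chr5:145720137-145720386 for Cyp3a41a, chr5:145805875-145806124 for Cyp3a44 and chr5:145469724-145469973 for Cyp3a16.
Cyp3a41a: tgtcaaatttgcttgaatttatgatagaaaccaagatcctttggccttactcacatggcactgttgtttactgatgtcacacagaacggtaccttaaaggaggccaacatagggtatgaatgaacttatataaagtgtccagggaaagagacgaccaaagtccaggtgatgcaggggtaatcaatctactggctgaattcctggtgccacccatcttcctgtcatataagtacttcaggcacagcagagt
Cyp3a44: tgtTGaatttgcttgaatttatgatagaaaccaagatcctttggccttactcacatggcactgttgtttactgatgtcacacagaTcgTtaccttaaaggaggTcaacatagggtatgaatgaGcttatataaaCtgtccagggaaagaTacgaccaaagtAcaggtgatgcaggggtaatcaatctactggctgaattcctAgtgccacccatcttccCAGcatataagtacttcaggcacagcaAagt
Cyp3a16: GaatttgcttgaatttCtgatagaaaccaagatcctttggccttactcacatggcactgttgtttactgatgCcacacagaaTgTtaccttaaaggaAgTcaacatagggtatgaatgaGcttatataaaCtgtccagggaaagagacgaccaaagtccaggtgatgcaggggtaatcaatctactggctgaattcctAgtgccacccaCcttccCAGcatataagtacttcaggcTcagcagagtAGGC

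The same promoters were searched for the letters TTCNNNGAA, the palindrome that STAT5 and other STAT proteins can bind, where N is any base and a match on either strand is the same match. Among all promoters listed 2306 of 32851 promoters (7.02%) held it in the 250 upstream bases. Of the 15 genes with the largest male excess 9 were in the table, with 10 promoters, and 1 of these, of Moxd1, held the letters. Of the 15 with the largest female excess 11 were in the table and 4 held them (Sult3a1, Slc22a26, A1bg and Hsd3b1). Cyp3a16, Cyp3a41a, Cyp3a41b and Cyp3a44 did not hold these letters in this window. A match is a run of letters and not a measured binding site, and the groups are too small for a comparison of shares. The promoters of Sult3a1 (chr10:33857472-33857721, plus strand), Slc22a26 (chr19:7802668-7802917, minus strand) and Moxd1 (chr10:24223267-24223516, plus strand) are shown with the match in capitals, to place it relative to the start site at the right end.
Sult3a1: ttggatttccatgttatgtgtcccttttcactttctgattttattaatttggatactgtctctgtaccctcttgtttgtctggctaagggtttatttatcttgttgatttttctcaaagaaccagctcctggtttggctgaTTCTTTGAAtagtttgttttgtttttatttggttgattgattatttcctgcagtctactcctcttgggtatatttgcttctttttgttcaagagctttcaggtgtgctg
Slc22a26: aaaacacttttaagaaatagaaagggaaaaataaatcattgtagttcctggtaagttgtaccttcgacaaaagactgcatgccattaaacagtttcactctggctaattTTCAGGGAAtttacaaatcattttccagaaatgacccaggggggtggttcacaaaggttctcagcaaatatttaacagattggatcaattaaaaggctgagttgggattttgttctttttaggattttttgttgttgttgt
Moxd1: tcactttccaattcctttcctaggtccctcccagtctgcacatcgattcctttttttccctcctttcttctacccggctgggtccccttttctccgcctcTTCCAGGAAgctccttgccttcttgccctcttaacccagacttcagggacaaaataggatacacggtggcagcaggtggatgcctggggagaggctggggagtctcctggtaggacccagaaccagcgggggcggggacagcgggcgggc

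Slc22a26 (ENSMUSG00000053303, chromosome 19, 7758406 to 7780032), an organic anion transporter, had the smallest adjusted p of all autosomal genes tested. It stood at 222, 186 and 209.7 CPM in females and 0.216, 0.217 and 0.140 CPM in males (-10.06 ± 0.30, adjusted p = 4.68e-10). Hao2, a peroxisomal hydroxy acid oxidase, was at 112, 94.5 and 131 against 0.162, 0.217 and 0.140 CPM (-9.33 ± 0.36, adjusted p = 6.62e-09). In both the lowest female value was far above the highest male value. A1bg, a plasma glycoprotein, was higher in females with a wide spread, at 484, 54.5 and 149.8 CPM against 2 counts over the males (ratio 6088, 95% counting interval 1685 to 50276). Acot3, a peroxisomal acyl-CoA thioesterase, was at 115, 94.2 and 142 CPM in females and 0.324, 0.362 and 0.0466 CPM in males (-8.97 ± 0.62), while the adjacent Acot4 differed less, at 119, 114 and 117 against 16.2, 21.2 and 18.97 CPM (-2.64 ± 0.21, adjusted p = 2.71e-06). Cyp17a1 (chromosome 19, 46655604 to 46661611), the enzyme that opens the route from progestogens to androgens, was at 253, 187 and 251 CPM in females and 11.4, 6.30 and 15.8 CPM in males (-4.35 ± 0.40, adjusted p = 1.66e-05).

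**Figure D2:**
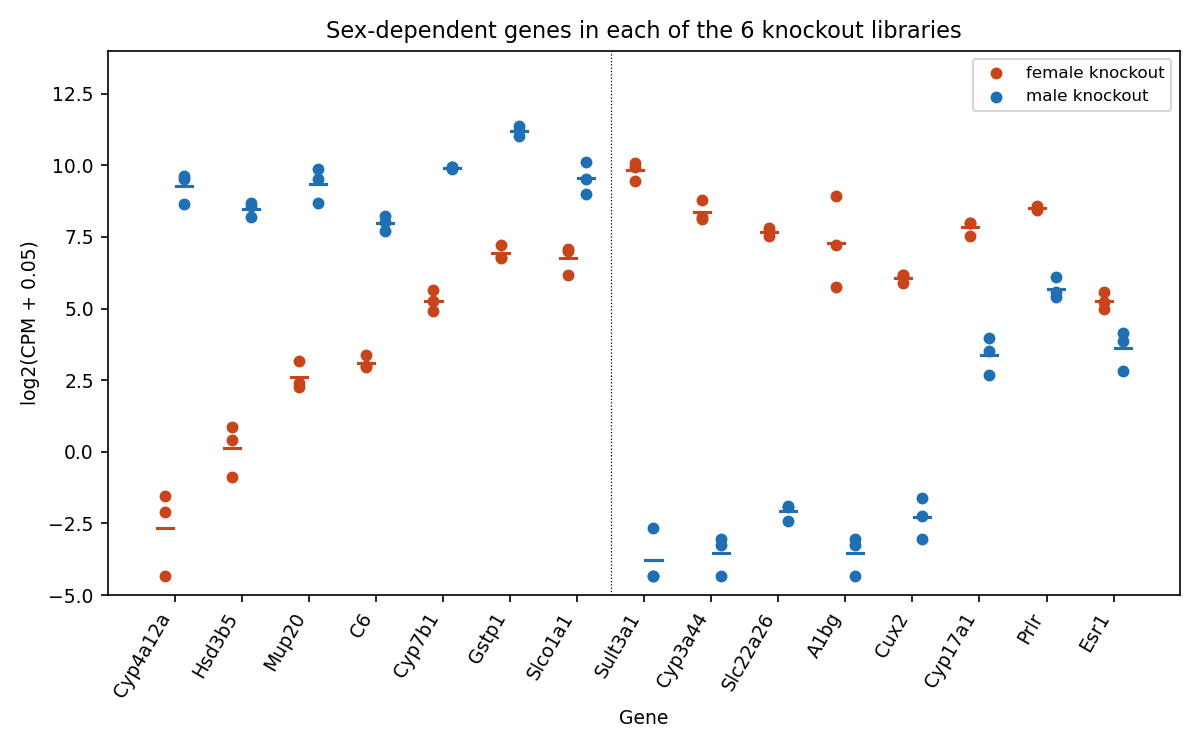
Level of 15 named genes in each of the 6 knockout libraries, as log2(CPM + 0.05), with female libraries in red, male libraries in blue and a bar at the group mean of these log2 values. The 7 genes left of the dotted line were higher in every male library and the 8 on the right in every female library.

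The hormone axis that sets liver dimorphism had called genes in both directions. Of 20 tested genes of the growth hormone and STAT5 axis 1 was higher in males and 1 in females, with a median of -0.17. The share called was 10%, beside 5.41% of all autosomal genes tested, and 6 genes had an unadjusted p under 0.05. Cux2 (ENSMUSG00000042589, chromosome 5, 121994429 to 122188165), the female-type repressor, was at 71.2, 72.9 and 59.8 CPM in females and 0.162, 0.0724 and 0.280 CPM in males (-8.48 ± 0.52, adjusted p = 2.51e-07), and the groups lay far apart. Ghr, the growth hormone receptor, was at 732, 971 and 626 CPM in males and 331, 423 and 447 CPM in females (0.95 ± 0.21, adjusted p = 0.0185). The male and female values of Ghr did not overlap, but the call was lost when the 6 knockout libraries were fitted alone. It was also lost without female knockout replicate 1 or 2 or male knockout replicate 2, and adjusted p was up to 0.0856. Bcl6, a repressor that is male-biased in mouse liver and antagonises STAT5, was at 19.5, 11.4 and 5.02 CPM in females and 4.97, 5.07 and 5.31 CPM in males, with overlap at the low end and no call (-1.22 ± 0.40, adjusted p = 0.0989). Bcl6 was called in 4 of 22 alternative analyses.

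Other steps of the axis did not pass the test. Stat5b was at 51.1, 68.9 and 58.0 CPM in females and 44.8, 32.4 and 59.6 CPM in males (-0.38 ± 0.22, adjusted p = 0.319). Igf1, the main secreted product of growth hormone action in liver, was at 645, 535 and 634 against 526, 612 and 609 CPM (-0.05 ± 0.15, adjusted p = 0.852), and the libraries of both sexes were interleaved. Cish, a STAT5-induced inhibitor that follows the last hormone pulse, was at 9.07, 8.38 and 28.9 CPM in females and 47.2, 45.9 and 43.8 CPM in males (1.56 ± 0.88, adjusted p = 0.306). Socs2 (-0.22 ± 0.62), Jak2 (-0.13 ± 0.18), Igfals (-0.54 ± 0.22) and Igfbp3 (-0.58 ± 0.17) had adjusted p of 0.853, 0.675, 0.167 and 0.0655. Among 22 alternative analyses Igfbp3 was called in 3, Socs3 in 2, and Cish and Stat5a in 1 each.

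The list of steroid hormone receptors and hepatocyte transcription factors, which also holds other receptors and regulators, had 26 tested genes. Of these 4 were higher in females and 1 in males, with a median of -0.14. Prlr (chromosome 15, 10177324 to 10349266), the prolactin receptor, was at 361, 349 and 381 CPM in females and 68.2, 42.5 and 48.3 CPM in males (-2.78 ± 0.22, adjusted p = 2.62e-06). Esr1, the oestrogen receptor alpha, was at 47.2, 31.8 and 37.9 against 7.07, 17.7 and 14.5 CPM (-1.58 ± 0.31, adjusted p = 0.00919). Female and male values did not overlap for either receptor. The leptin receptor gene Lepr (-1.57 ± 0.30) and Trim24 (-2.47 ± 0.31), a nuclear receptor coregulator, were also higher in females, and Zfp809, a repressor of retroviral elements, was higher in males (1.59 ± 0.30).

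Lists of genes known as male-biased or female-biased in mouse liver were taken from general knowledge with earlier results of these data known, so their direction is no independent evidence. Of 41 tested male-biased genes 37 were higher in males and 1 in females, with a median of 2.99. The exception was Sult1c2 (-1.15 ± 0.22), a phenol sulfotransferase, chosen after its values were seen. Of 47 tested female-biased genes 39 were higher in females and 2 in males, with a median of -4.35. The 2 exceptions were Slc22a28, an organic anion transporter at 21.9, 44.4 and 14.5 CPM in males and 0.356, 1.44 and 0.734 CPM in females (5.00 ± 0.55), and Cyp2b10. Cyp2b10, a P450 induced through the receptor CAR and chosen after its values were seen, was at 19.1, 23.4 and 26.8 CPM in males and 0.0445, 0.463 and 0.550 CPM in females (5.98 ± 0.68, adjusted p = 0.00011). Cyp2b9 and Cyp2b13, other members of the female-biased list, had 3 and 0 counts over the 6 knockout libraries and were not tested. Without female knockout replicate 2 the counts were 31 and 1 for the male-biased list and 39 and 2 for the female-biased list.

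**Figure D3:**
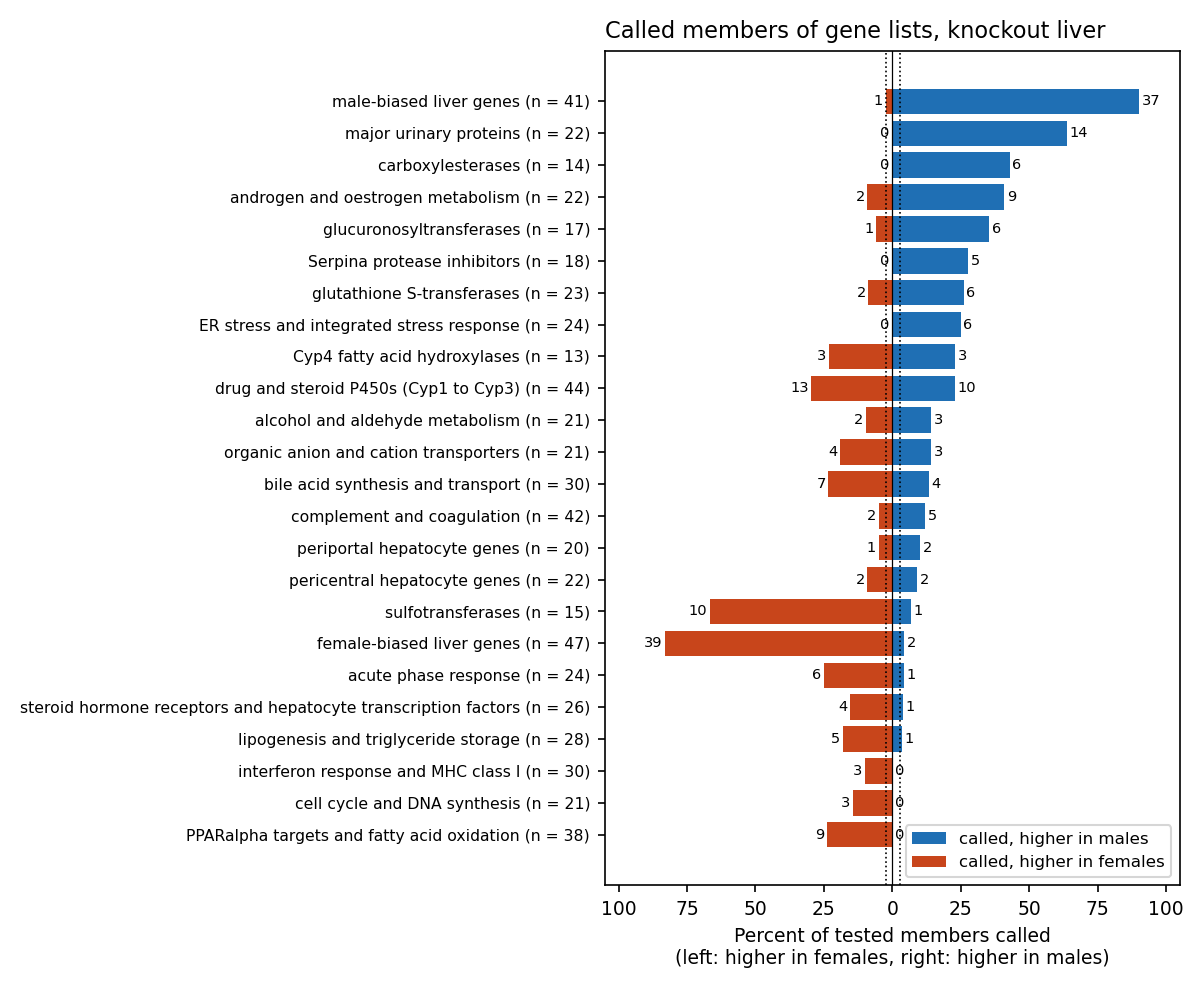
Share of tested members of each gene list that was called higher in males (blue, to the right) or higher in females (red, to the left) in knockout liver, for the lists described here with at least 3 called members, and each bar carries the number of genes. Dotted lines mark the shares over all autosomal genes tested, 2.96% and 2.45%, and the male-biased, female-biased, urinary protein and sulfotransferase lists reach farthest beyond them.

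Enzymes of drug metabolism divided by family. Of 44 P450s of families Cyp1 to Cyp3, 10 were higher in males and 13 in females, with a median of 0.06. Cyp2c29, an epoxygenase of pericentral hepatocytes, was at 3636, 2746 and 2517 CPM in males and 882, 1066 and 1091 CPM in females (1.55 ± 0.21). In the Cyp4 family 3 of 13 were higher in males and 3 in females, and the female-higher ones lie beside the male-type Cyp4a12 genes on chromosome 4. Cyp4a14 was at 206, 307 and 212 CPM in females and 13.5, 23.0 and 12.4 CPM in males (-3.89 ± 0.48, adjusted p = 0.000225). Cyp4a10 was at 174, 185 and 151 against 27.9, 27.6 and 36.0 CPM (-2.48 ± 0.31, adjusted p = 0.000285). Both encode omega-hydroxylases of fatty acids and lay higher in every female library than in any male library.

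The flavin monooxygenase genes Fmo2 (-2.17 ± 0.39) and Fmo4 (-1.28 ± 0.18) were higher in females. Fmo4 was at 22.9, 22.6 and 23.0 CPM in females and 9.39, 8.25 and 10.4 CPM in males, with little spread within either sex. In knockout liver the called conjugating and hydrolysing enzymes leaned to males, apart from the sulfotransferases. In wild type liver 1 glucuronosyltransferase was higher in males and 2 in females, and of the carboxylesterases 5 and 3. Of the glutathione S-transferases 1 was higher in wild type males and 3 in wild type females, with a median of -0.21 against 0.45 in knockout. No gene of these families passed edgeR's test of a difference in the sex effect between the lines. The smallest adjusted p was 0.168 for glucuronosyltransferases and 0.204 for carboxylesterases and for glutathione S-transferases. Of 17 glucuronosyltransferases 6 were higher in males and 1, Ugt1a5 (-2.47 ± 0.47), in females. Ugt2b1, which glucuronidates steroids and phenols, was at 1179, 1352 and 1045 CPM in males and 258, 366 and 392 CPM in females (1.82 ± 0.21, adjusted p = 0.000106). Of 14 carboxylesterases 6 were higher in males and 0 in females, among them Ces3a, a lipid hydrolase, at 2756, 2678 and 2761 against 749, 1150.1 and 1067 CPM (1.47 ± 0.18, adjusted p = 0.000197). Of 23 glutathione S-transferases 6 were higher in males and 2 in females, with Gsta1 (3.88 ± 0.47) beside Gstp1 among the former and Gstt3 (-1.34 ± 0.19) among the latter. Both transferase lists lost calls when libraries were left out. Without female knockout replicates 1, 2 or 3 or male knockout replicate 1 the glutathione S-transferase counts were 2 to 3 higher in males and 1 in females, and without female knockout replicate 2 those of the glucuronosyltransferases were 4 and 1 and without replicate 1 they were 4 and 2. Of 21 organic anion and cation transporters 3 were higher in males and 4 in females.

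Of 22 enzymes that make and break sex steroids 9 were higher in males, 2 were higher in females and 11 were not called. Hsd3b2, a steroid dehydrogenase and isomerase, was at 270.3, 326 and 275 CPM in males and 28.3, 55.9 and 42.1 CPM in females (2.79 ± 0.26, adjusted p = 1.85e-05). Hsd3b1, another gene of that chromosome, went the other way, at 8.72, 0.509 and 3.74 CPM in females and 0 counts in males, at least 77.7-fold higher in females. The 2 female-higher members of the list were Cyp17a1 and Sult1e1, the oestrogen sulfotransferase (-3.10 ± 0.49, chosen after its values were seen). In bile acid synthesis and transport, with 30 genes tested, 4 were higher in males and 7 in females, with a median of -0.03. Scp2, the peroxisomal thiolase that shortens the bile acid side chain, was at 3886, 3678 and 4048 CPM in males and 1509, 1429.8 and 1571 CPM in females (1.36 ± 0.15, adjusted p = 8.73e-05). Cyp39a1, the hydroxylase of 24-hydroxycholesterol, was at 28.7, 43.5 and 43.5 CPM in females and 7.02, 8.04 and 8.90 CPM in males (-2.27 ± 0.24, adjusted p = 6.88e-05). The drug efflux pump Abcb1a was at 9.38, 16.0 and 14.4 against 1.30, 0.507 and 1.31 CPM (-3.63 ± 0.43, adjusted p = 0.000167). Without female knockout replicate 2 the counts for this list were 3 and 4.

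Called genes of lipid storage and fatty acid oxidation were mostly female-higher. Of 38 genes that PPARalpha targets or that oxidise fatty acids 9 were higher in females and 0 in males, with a median of -0.24, and they include Acot3, Acot4, Cyp4a10 and Cyp4a14. Of 28 genes of lipogenesis and triglyceride storage 5 were higher in females and 1 in males. Elovl5, an elongase of polyunsaturated fatty acids, was at 547, 407 and 515 CPM in females and 280.2, 233 and 236 CPM in males (-0.97 ± 0.18, adjusted p = 0.00585). Pparg, the adipogenic nuclear receptor, was at 6.89, 9.63 and 8.77 against 3.78, 2.90 and 3.82 CPM (-1.26 ± 0.25, adjusted p = 0.00822), and Fitm1, which buds lipid droplets, was the male-higher one (2.44 ± 0.46). The count of female-higher lipogenesis genes was 3 without female knockout replicate 1, 2 or 3 or male knockout replicate 2, and 2 without male knockout replicate 1.

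Plasma proteins of the complement cascade and the acute phase differed in both directions. Of 42 complement and coagulation genes 5 were higher in males and 2 in females. The male-higher genes were C4a and 4 components of the membrane attack complex. Beside C6 these were C8a, C8b and C9. C8a was at 715, 595 and 741 CPM in males and 192, 207 and 139.8 CPM in females (1.93 ± 0.21). C8b was at 558, 759.8 and 585 against 145, 129 and 112 CPM (2.30 ± 0.20). C9 was at 603, 599.6 and 569 against 152, 106 and 123.02 CPM (2.22 ± 0.20). In each of them every male library lay above every female library. Of 24 acute phase genes 6 were higher in females and 1 in males, with a median of -0.52. The female-higher count was 2 without female knockout replicate 1 and 3 without male knockout replicate 1. Itih4, an inter-alpha-trypsin inhibitor heavy chain, was at 3153, 2906 and 3037 CPM in females and 1518, 1186 and 1594 CPM in males (-1.08 ± 0.18, adjusted p = 0.00296). The protease inhibitor Serpina3k was the male-higher member, at 6969, 8963 and 6524 against 2825, 2404 and 2695 CPM (1.503 ± 0.21, adjusted p = 0.000714), and 5 of 18 genes of the Serpina family were higher in males with 0 higher in females. That count of 5 was 3 without female knockout replicate 2.

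Called stress response genes were higher in males and called cell cycle genes in females. Of 24 genes of the ER stress and integrated stress response 6 were higher in males and 0 in females, with a median of 0.51. Asns, the asparagine synthetase induced by ATF4, was at 27.5, 16.0 and 14.5 CPM in males and 2.00, 0.787 and 1.28 CPM in females (3.82 ± 0.42, adjusted p = 7.55e-05). The ER chaperones and chaperone-like factors Sdf2l1 (1.71 ± 0.31), Manf (1.60 ± 0.30) and Creld2 (1.25 ± 0.22) were higher in males too. Of 21 cell cycle genes 3 were higher in females and 0 in males, and the female-higher count was 1 without male knockout replicate 1, 2 without female knockout replicate 3 or male knockout replicate 2, and 5 without female wild-type replicate 1. Ccnd1, the cyclin of early G1 phase, was at 46.2, 45.5 and 61.1 CPM in females and 7.18, 3.76 and 4.71 CPM in males (-3.28 ± 0.37, adjusted p = 9.76e-05), a separation without overlap, and Mki67, a mark of cycling cells, was lower than 3 CPM in all 6 libraries (-2.10 ± 0.42, a call lost without male knockout replicate 1). Among 24 genes for heme and iron, Hamp2, a hepcidin paralogue, was higher in females at 108, 57.4 and 66.7 against 7.88, 14.5 and 4.34 CPM (-3.13 ± 0.37, adjusted p = 0.000141). Tfrc, the transferrin receptor, was higher in males at 26.3, 38.4 and 20.5 against 7.07, 5.603 and 5.58 CPM (2.22 ± 0.25, adjusted p = 8.91e-05).

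Of 30 interferon response and MHC class I genes 3 were higher in females and 0 in males, with a median of -0.06. The GTPase genes Gbp2 (-2.44 ± 0.43) and Gbp3 (-1.70 ± 0.33) led the 3. The share called was 10% in this list, beside 5.41% of all autosomal genes tested. It was 4% for the urea cycle, 23.8% for alcohol, 8% for antioxidant, 18.2% for pericentral and 15% for periportal genes. Of 25 urea cycle and amino acid genes 1 was called, Tdo2, which opens tryptophan breakdown, higher in males (1.19 ± 0.21). Of 21 genes of alcohol and aldehyde metabolism 3 were higher in males (Adh4, Adh7 and Aldh1a1) and 2 in females (Akr1b7 and Aldh3a2). Aldh3a2, which oxidises fatty aldehydes, was at 229, 319.7 and 383 CPM in females and 136, 147 and 124 CPM in males (-1.19 ± 0.19, adjusted p = 0.00173). The calls of Adh4 and Aldh1a1 were lost in 8 and 7 of 22 alternative analyses and that of Adh7 without any 1 of the 3 female knockout libraries, and the male-higher count was 0 without female knockout replicate 1 or 3 and 1 without male knockout replicate 1 or 2. Of 25 antioxidant and Nrf2 target genes 2 were higher in males (Ephx1 and Mgst1), of 22 pericentral hepatocyte genes 2 each way, and of 20 periportal genes 2 in males and 1 in females. These last calls were few and moved with single libraries: the antioxidant count was 0 without any 1 of the 3 female knockout libraries, male knockout replicate 1 or male wild-type replicate 1, and without female knockout replicate 1 the counts in males and females were 1 and 0 for the pericentral list and 0 and 1 for the periportal list. No gene of gluconeogenesis (20 tested) or of the circadian clock (19 tested) was called by edgeR. At an unadjusted p under 0.05 there were 5 and 2, and DESeq2 called 0 and 1.

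Short, highly expressed gene classes had medians above 0 with few calls. The median of 76 nuclear-encoded respiratory chain genes was 0.64 with 0 called by edgeR, 43 at an unadjusted p under 0.05 and 6 by DESeq2. That of 79 cytosolic ribosomal proteins was 0.88 with 1 called, Rpl12 (1.54 ± 0.40, adjusted p = 0.0423), whose call was lost in 12 of 22 alternatives. Without male knockout replicate 3 the counts of male-higher genes were 5 for the respiratory chain and 22 for ribosomal proteins, and the latter was 3 without male wild-type replicate 2 and 5 without male wild-type replicate 3. The median of 37 proteasome subunits was 0.49, with 0 called by edgeR, 19 at an unadjusted p under 0.05, 4 by DESeq2, and 4 by edgeR without male knockout replicate 3. Summed ribosomal protein levels were 9725 to 14870 CPM in females and 15030 to 35919 CPM in males. Libraries also differed in how level moved with gene length. That slope, in log2 units per doubling of length, was 0.19 ± 0.10 (SD, n = 3) in knockout females and 0.03 ± 0.18 in knockout males, with overlap. With the slope in the model the medians were 0.15 for the respiratory chain and 0.21 for ribosomal proteins, while those of the male-biased and female-biased lists were 2.68 and -4.01.

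Markers of other liver cells showed few sex differences that passed the test, though the medians of several of these lists lay below 0. By edgeR 0 genes were called among 12 hepatocyte, 13 Kupffer cell, 16 sinusoidal endothelial, 15 stellate cell, 8 cholangiocyte and 5 erythroid markers tested. At an unadjusted p under 0.05 these lists held 4, 3, 3, 3, 2 and 0 genes in that order, and DESeq2 called 1 hepatocyte, 1 Kupffer cell and 1 stellate cell marker, each higher in females. The hepatocyte markers summed to 135865 to 145845 CPM in females and 106083 to 118166 CPM in males, so the labelled tissue was plainly liver in every library. Kupffer cell markers summed to 255.8 to 339.7 CPM in females and 189.2 to 297.1 CPM in males. Sinusoidal endothelial markers summed to 374.9 to 504.0 and 279.7 to 420.2 CPM, and stellate cell markers to 516.9 to 601.2 and 345.0 to 484.0 CPM, without overlap in the last. The medians were -0.50 for Kupffer cell, -0.40 for endothelial, -0.52 for stellate cell and -0.99 for lymphocyte and neutrophil markers. They were 0.09 for hepatocyte, -0.13 for cholangiocyte and 0.31 for erythroid markers, beside -0.04 for all autosomal genes tested. Of 11 lymphocyte and neutrophil markers 1 was higher in females, the B cell receptor component Cd79a at 4.05, 1.11 and 1.58 against 0.540, 0.362 and 0.280 CPM (-2.49 ± 0.55). That call was lost without female knockout replicate 1 or male knockout replicate 2 or 3 (adjusted p up to 0.0853), which left 0 called. The summed level of that list was 17.6 to 46.0 CPM in females and 11.6 to 15.8 CPM in males, and the part of these cells in the gene results was not tested. Of the adipose, pancreas and muscle markers 2 were tested and the elastase gene Cela1 was higher in males (1.70 ± 0.43), a call that was lost in 10 of 22 alternatives, among them without any 1 of the 3 female knockout libraries and without male knockout replicate 1 or 2.

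Some of the called genes lay side by side. Runs of at least 4 called genes of the same direction, each within 200 kb of the next, numbered 15 and held 73 of the 734 called genes, with uncalled genes inside some of them. Male-higher runs held 7 called of 11 tested genes in the carboxylesterase cluster of chromosome 8 (105460635 to 105944621), 7 of 11 in the Serpina cluster of chromosome 12 (103784115 to 104052983) and 6 of 7 in the Ugt2b cluster of chromosome 5 (87037626 to 87288177). Female-higher runs held 5 of 5 in the Sult3a cluster of chromosome 10 (33642420 to 33792017) and 4 of 5 in the Acot cluster of chromosome 12 (84034635 to 84107176). In the Cyp2c cluster of chromosome 19 (39378000 to 40000687) 5 of 7 tested genes were higher in females and 1 in males. Reads of near-identical neighbours can be split between them, so neighbouring calls are not independent. The share of tested genes called ranged from 2.88% on chromosome 17 to 7.49% on chromosome 19.

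The same comparison in wild type liver, which shares no library with the knockout comparison, called 613 autosomal genes (4.52%), 285 higher in males (2.1%) and 328 in females (2.42%). Of the 734 knockout calls 670 (91.3%) had the same sign in wild type, beside 45.3% of all autosomal genes tested. This was so for 356 of 402 male-higher and 314 of 332 female-higher genes. The 337 genes called the same way in both were 45.9% of the knockout calls and 55.0% of the wild type calls, and 0 were called in opposite directions. Across the 734 genes the log2 fold changes of both lines had a Pearson r of 0.936, and across all tested genes of 0.629, given as a description since genes are not independent replicates. Among the 670 the median ratio of the knockout to the wild type fold change was 1.40 on the log2 scale. Since these genes were chosen for passing in the knockout, that ratio does not compare the lines.

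**Figure D4:**
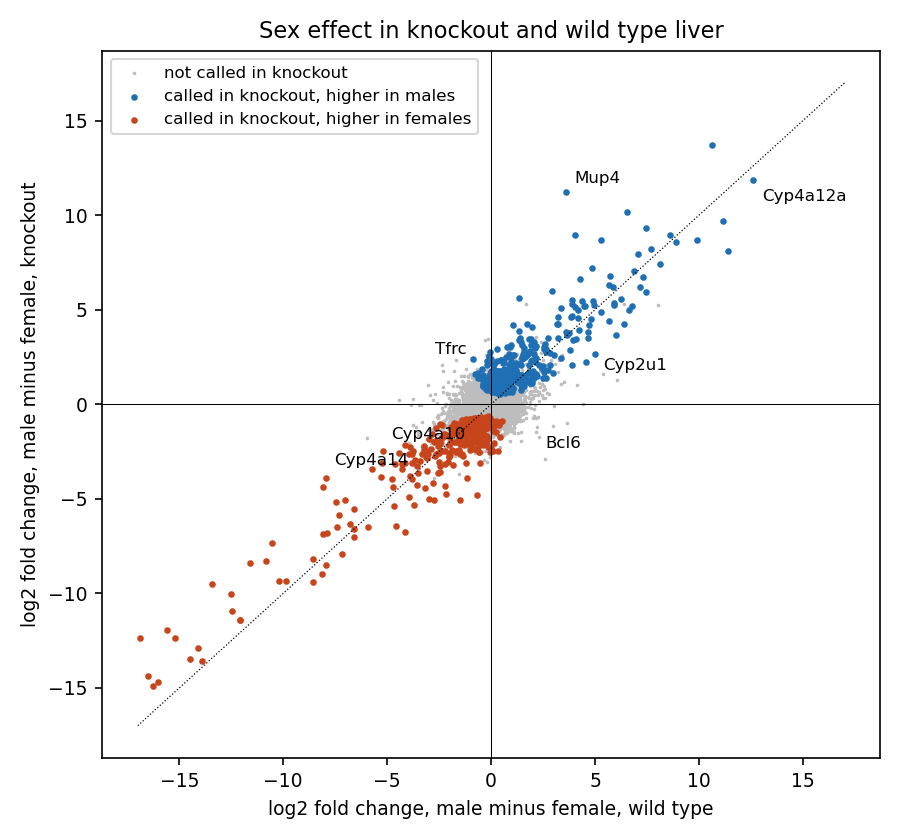
Each point is an autosomal gene, with its male minus female log2 fold change in wild type liver on the x axis and in knockout liver on the y axis, and the dotted line marks equal values. Of the genes called in knockout (blue and red) 670 of 734 lie in the quadrants of equal sign, and Tfrc and Bcl6 (not called in knockout) are among those off the line.

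Whether the sex difference itself differed between knockout and wild type was tested as an interaction. By edgeR 0 autosomal genes (0%) passed, with a smallest adjusted p of 0.0972, while 3045 (22.5%) had an unadjusted p under 0.05. With the length slope in the model 725 had an unadjusted p under 0.05. That slope was -0.19 ± 0.04 (SD, n = 3) in wild type females and -0.03 ± 0.14 in wild type males. It was 0.19 ± 0.10 in knockout females, whose range did not overlap that of wild type females. DESeq2 called 81. The genes below were therefore not shown to differ by the test used throughout, and their values are given because they had the smallest p-values among genes of the lists. Bcl6 was higher in wild type males, at 20.2, 13.7 and 18.7 CPM against 3.02, 2.87 and 5.53 CPM in wild type females (2.21 ± 0.41, adjusted p = 0.0061). In knockout its fold change was -1.22 ± 0.40, with the values given above. The difference of these differences was -3.43 ± 0.57 (unadjusted p = 4.06e-05, adjusted p = 0.138, and 1.17e-05 by DESeq2). It was called by edgeR without female knockout replicate 3 (-3.80, adjusted p = 0.0197).

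Tfrc was at 20.03, 19.3 and 19.3 CPM in wild type females and 14.7, 17.4 and 22.9 CPM in wild type males, with no call (-0.10 ± 0.24, adjusted p = 0.832). The female knockout libraries were the low ones among the 4 groups. The difference between the lines was 2.32 ± 0.34 (adjusted p = 0.0972), and it was called without male knockout replicate 3 (adjusted p = 0.0439) or wild type male replicate 3 (adjusted p = 0.0471).

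Cyp4a10 and Cyp4a14 were female-higher in both lines, with more transcript in knockout than in wild type males. In wild type males Cyp4a10 was at 5.90, 5.42 and 1.86 CPM and in wild type females at 189, 173 and 135 CPM (-5.22 ± 0.36), and the difference between the lines was 2.75 ± 0.44 (adjusted p = 0.123). Cyp4a14 was at 1.59, 0.335 and 0.186 CPM in wild type males and 268, 132 and 162 CPM in wild type females (-7.96 ± 0.61), a difference between the lines of 4.07 (adjusted p = 0.138). With the length slope in the model Cyp4a10 (adjusted p = 0.0304) and Cyp39a1 (adjusted p = 0.0405) passed. The third gene to pass there was Cyp2a4, a steroid hydroxylase chosen after its values were seen (adjusted p = 0.0405), with a knockout fold change of -2.56 ± 0.34 and a wild type one of -4.44 ± 0.36. Cux2 was close in both lines, at -7.93 ± 0.54 in wild type and -8.48 ± 0.52 in knockout.

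**Figure D5:**
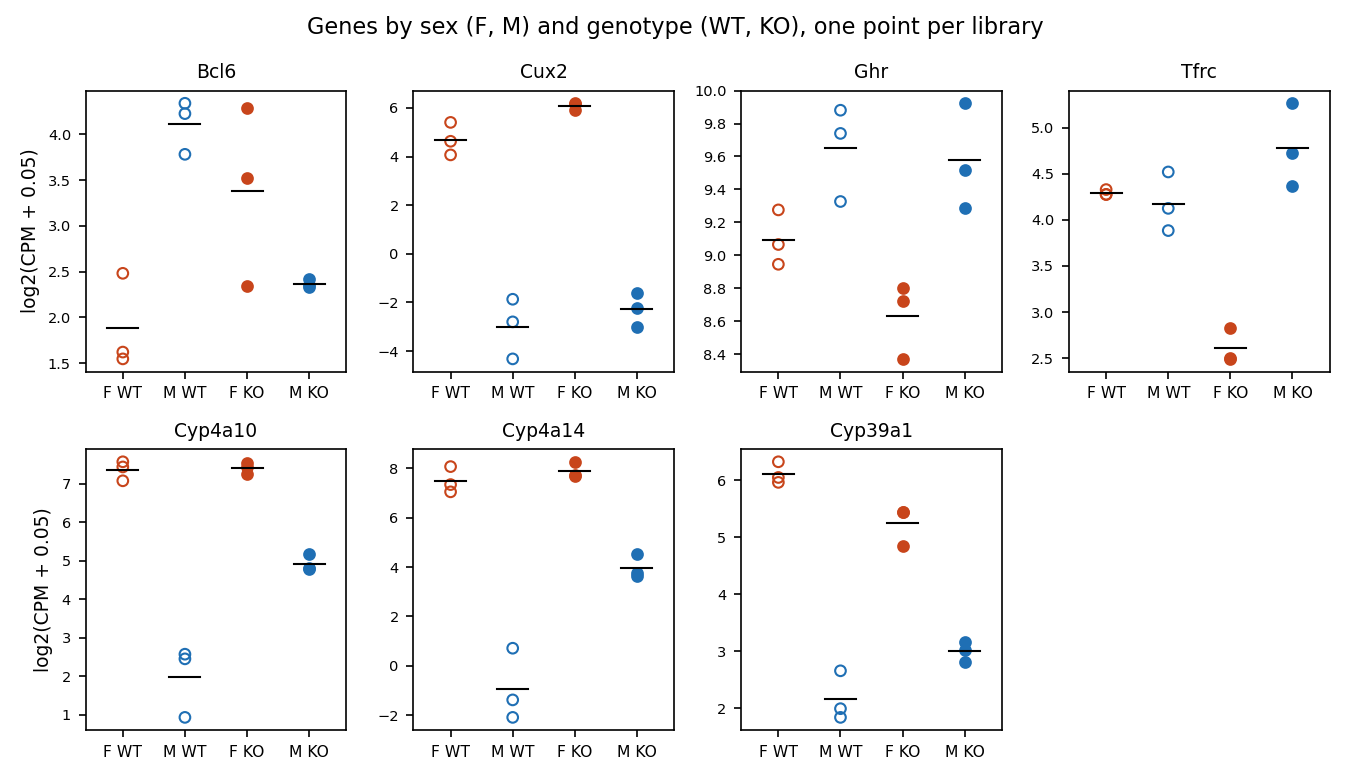
Level of 7 genes in the 12 libraries as log2(CPM + 0.05), by sex (F, M) and genotype (WT open, KO filled), with a bar at the group mean of these log2 values, and y axes differ between panels. Bcl6 is high in wild type males and Tfrc low in knockout females, while Cyp4a10 and Cyp4a14 are low in males of both lines and lowest in wild type males.

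Of the 734 knockout calls 64 had the opposite sign in wild type, 46 of them male-higher and 18 female-higher in knockout. Their median absolute fold change was 1.16 in knockout and 0.19 in wild type. In 7 of the 64 the wild type libraries also separated by sex in the opposite direction. Over all 13559 autosomal genes tested, without regard to calls, 91 separated male above in knockout and female above in wild type. The reverse held for 83. Over the respiratory chain list the medians were 0.64 in knockout and -0.49 in wild type, and over ribosomal proteins 0.88 and -0.53, the lists whose medians moved with the length slope.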

How the data were processed

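Poly(A)-selected RNA of mouse liver was sequenced in 12 libraries, 3 per sex and line, per the labels. The authors deposited a table of raw counts per gene, whole numbers with different totals per library, with mm39 positions, gene length and biotype. HISAT2 2.0.5, DESeq2 and mm39 appear in the submitters' processing notes without their roles. The sources used here do not name the counting program or its use of strand, so overlapping and near-identical genes may share reads. Columns were matched to samples by the library numbers in the labels.

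Genes were kept by edgeR's filterByExpr on the 4 groups, which left 14003 of 56748 genes with 99.9% of counts, 13559 of them autosomal. edgeR 4.0.16 in R 4.3.3 was used with TMM scaling, 1 mean per group over 12 libraries (8 residual degrees of freedom, prior 5.22, biological coefficient of variation 25.9%) and the quasi-likelihood test. P-values were adjusted by Benjamini-Hochberg over all 14003 genes, and adjusted p under 0.05 made a call. Standard errors were back-calculated from the F statistic. CPM are counts over the TMM-scaled library size, without a prior, and average log2 CPM used a prior count of 2. Pairs of libraries within a group had a chi-square of 14.9 to 136 per degree of freedom, above the 1 of pure sampling. Where a group had 0 counts a floor of 3 counts over the group gave a lower bound, and with 1 to 3 counts the ratio is given with an exact 95% counting interval.

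The members and the 44 gene lists were chosen with earlier results of these data known. Named genes were Cyp2e1, the 15 largest differences each way among called autosomal genes that reached an average log2 CPM of 1, with an established symbol and no overlap between the sexes, up to 4 members of smallest adjusted p per list with a called member, and the genes of the growth hormone axis. No gene passed the interaction test, whose 6 largest each way the rule would also have named. Alternatives were other scalings and filters, length corrections, a replicate block, the 6 knockout libraries alone, each library left out, and DESeq2 1.42.0. Promoter letters came from the RefSeq table of GRCm38.p6 and were aligned with Biopython 1.88. A few genes and the lists that rest on them are not reported here.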

Additional observations from a re-analysis of the deposited data

How the results depend on the processing

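The knockout count of 734 calls was 747 with RLE scaling and 711 with upper quartile scaling, which moved the male-higher share from 54.8% to 48.4%. It was 1642 without a low-count filter, 591 with an average CPM of at least 2, 1076 with the length slope as covariate, 816 with the length trend removed, 530 in the 6 knockout libraries alone and 1359 by DESeq2. Leaving out single libraries gave 427 to 923, with 427, 456 and 480 without female knockout replicates 1, 2 and 3, and 486 and 487 without male knockout replicates 1 and 2. The wild type count of 613 was 1648 without the filter and 1185 by DESeq2, and 370 to 1087 with a library left out. The interaction count of 0 was 1407 without the filter, 81 by DESeq2, 3 with the length slope and 0 to 2 with a library left out. The 670 knockout calls of equal sign in wild type, 91.3% of 734, were 1031 of 1359 by DESeq2 (75.9%). Without the filter they were 998 of 1642 (60.8%). With a library left out they were 409 to 752. Their share then ran from 70.9% without male knockout replicate 3 to 97.5% without male knockout replicate 2. With the replicate block the knockout count was 495 and the wild type count 406. Same-numbered knockout libraries correlated at -0.23, -0.34 and -0.01 in their deviations from the group means, and wild type ones at -0.07, -0.31 and 0.02. Differently numbered libraries ranged from -0.24 to 0.31 in knockout and from -0.28 to 0.33 in wild type. Deviations within a group of 3 libraries depend on each other, so these values cannot decide whether replicate numbers pair the samples. No named call changed sign in any of 22 alternatives, 85 of 110 stayed called in all of them, and 25 were lost in at least 1. Of all 734 calls 283 were kept in every alternative, 275 of them with the same sign in wild type. The causes of the moves were not tested. With 3 libraries per group, depth limits genes of few counts to bounds and intervals.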
